A study of Homo sapiens with 4 samples.

Results

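The 10 genes described here set the pace of the G1 phase of the cell cycle: the D-type cyclins CCND2 and CCND3, the E-type cyclins CCNE1 and CCNE2, the kinases CDK4 and CDK6, and the CDK inhibitors CDKN1A (p21), CDKN1B (p27), CDKN2A (p16INK4A and ARF) and CDKN2C (p18INK4C). They were taken by symbol from a table of 41507 genes, and their 29 transcripts from a table of 67765 transcripts. SU-DHL-5 and Toledo are established cell lines of diffuse large B-cell lymphoma (DLBCL), and JQ1 is a compound that keeps BET bromodomain proteins off acetylated chromatin. Each line was treated either with 1 µM JQ1 or with DMSO, the vehicle, for 6 h by the sample labels, whereas the study's article gives a longer time. The labels name no other treatment or modification of the cells, and both lines grew in the same medium. The study profiled RNA to learn which genes change when BET proteins are inhibited, and the comparisons are JQ1 against DMSO in each line and Toledo against SU-DHL-5 under DMSO.

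In G1, cyclin D binds CDK4 or CDK6 and cyclin E binds CDK2, and these kinases phosphorylate the retinoblastoma protein, which then lets go of the E2F factors that switch on S phase genes. The INK4 inhibitors, such as p16INK4A and p18INK4C, bind CDK4 and CDK6 alone, while the CIP/KIP inhibitors p21 and p27 bind cyclin-CDK complexes and restrain cyclin E-CDK2. Cyclin D3 is the D cyclin of germinal center B cells, from which many DLBCLs arise.

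There was 1 sample per condition and each sample had 2 libraries in the tables, which were averaged and counted as 1 replicate (n = 1). Whether they are repeat runs or separate cultures is not given in the sources used here. No difference therefore has a replicate check, and no test or p-value is given. Values are RPKM, reads normalised to feature length and to library depth, so they are levels relative to all RNA of a library and comparable between genes, but they cannot tell fewer cells of a type from less RNA per cell. Ratios are log2((JQ1 + 0.1)/(DMSO + 0.1)) of mean RPKM. A gene was called lower or higher when its ratio was past 1.5-fold (0.58 on the log2 scale) and no library of one condition reached into the other, among genes with a mean of at least 0.5 RPKM. The brackets after a ratio give the 95% exact binomial interval from the recovered reads, on the log2 scale, which covers counting error only.

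The libraries had 14617583 to 17679831 mapped reads, of which 94.8% to 95.5% were on genes. The pair of libraries of each sample differed by more than counting error, least for JQ1-treated SU-DHL-5 and most for DMSO-treated Toledo, with a chi-square per gene of 2.01 and 15.9. In DMSO-treated Toledo, the ratio of library 2 to library 1 was related to feature length, with a Spearman's rho of 0.59 across 10242 genes, a description over genes of the same libraries. In JQ1-treated Toledo the rho was -0.26, and in SU-DHL-5 it was -0.08 with DMSO and -0.06 with JQ1. HEXIM1, a gene known to rise under BET inhibition, was higher by 2.43 for SU-DHL-5 and 2.57 for Toledo on the log2 scale. MYC, the other gene looked at as a check of treatment, was called in neither line, with log2 ratios of -0.29 and 0.03. The study itself reported lower MYC RNA by qPCR, and lower MYC protein, with JQ1 in every DLBCL line it assayed, SU-DHL-5 and Toledo included. Why the RNA values here differ from that qPCR was not tested. The 6 B-cell markers summed to 884 to 999 RPKM in DMSO and 609 to 637 RPKM in JQ1, and 5 were called lower in SU-DHL-5 and 4 in Toledo, MS4A1, CD79A and CD22 among them in both. The 6 T and NK cell markers summed to at most 1.54 RPKM and the 5 myeloid markers to at most 1.35 RPKM, both highest in DMSO-treated SU-DHL-5, where CD3E (0.93 to 1.09 RPKM) and LYZ (1.09 to 1.20 RPKM) led. CD2, CD5 and FCGR3A were at 0 in every library. The part of these markers in the results below was not tested.

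With JQ1, cyclin D3 and p21 were called lower in both lines, and no member was called higher in both. Of the 10 genes, 9 passed the filter on low values in every comparison and CCND2 did not. In SU-DHL-5, 2 of the 9 were called lower, CCND3 and CDKN1A, beside 13.3% of all 9738 genes tested. In the same line 1 member, CDKN2C, was called higher, beside 9.06% of all genes. In Toledo, 5 of the 9 were called lower, CCND3, CCNE1, CCNE2, CDK6 and CDKN1A, beside 17.7% of all 10124 genes tested. None was called higher in Toledo, where 7.07% of all genes were. Without a fold cutoff, the JQ1 libraries lay below both DMSO libraries for 6 members in SU-DHL-5 and 7 in Toledo, beside 38.4% and 43.5% of all genes. They lay above for 2 members in SU-DHL-5 and for 0 in Toledo, beside 41.5% and 29.1% of all genes. Called lower in both lines were 2 of the 9, beside 8.24% of the 9188 genes tested in both, and 0 were called higher in both, beside 3.81%.

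Over the 9 members the log2 ratio had a median of -0.40 for SU-DHL-5 and -0.60 for Toledo, beside 0.01 and -0.07 over all genes tested. The members whose JQ1 libraries lay above DMSO in SU-DHL-5 were the inhibitors CDKN1B and CDKN2C, and CDKN2A overlapped there. In Toledo CDKN1B and CDKN2A overlapped, and the other 7 lay below. The plot of JQ1 ratios shows both lines side by side.

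**Figure D1:**
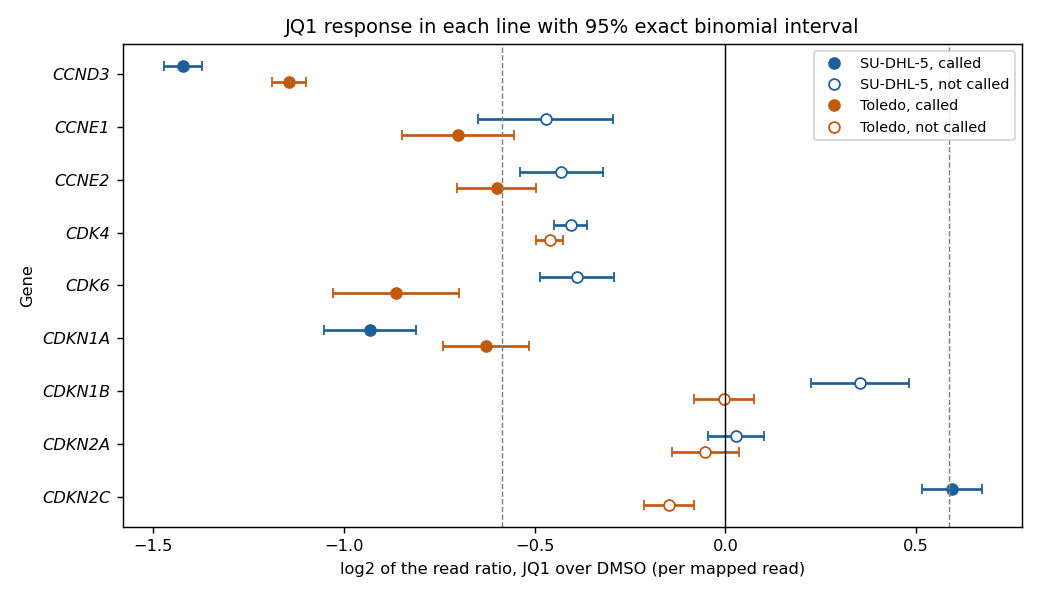
Ratio of reads per mapped read, JQ1 over DMSO, on a log2 axis for the 9 members that passed the filter, with SU-DHL-5 in blue and Toledo in orange, bars for the 95% exact binomial intervals (counting error only), filled points for called genes and dashed lines at 1.5-fold. CCND3 lies farthest to the left in both lines and CDKN2C farthest to the right in SU-DHL-5.

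Cyclin D3 carried nearly all D cyclin RNA of these cells and was the member with the largest JQ1 ratio in each line. Its level in the SU-DHL-5 libraries was 131 and 110.0 RPKM with DMSO and 43.8 and 46.1 RPKM with JQ1. The Toledo libraries were at 129 and 119 RPKM with DMSO and 55.0 and 57.2 RPKM with JQ1. All JQ1 libraries were thus far below all DMSO libraries, and the lines overlapped under DMSO. The fall was 2.68-fold in SU-DHL-5 (log2 ratio -1.42 [-1.47, -1.37]) and 2.20-fold in Toledo (-1.14 [-1.19, -1.10]). CCND3 was the only member still called with JQ1 at a 2-fold cutoff in either line, and its call held in every alternative tried.

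CCND2 (chr12:4273736-4305356), the D cyclin induced by mitogens in resting B cells, was close to silent. SU-DHL-5 had 0 reads in all 4 libraries, where 3 reads, the limit that a count of 0 allows, would be up to 0.031 RPKM. Toledo had 1 read in each DMSO library and 1 and 2 reads in the JQ1 libraries, so that no JQ1 difference was detectable at this depth. With CCND1 at most at 0.096 RPKM, CCND3 made up at least 99.88% of the summed RPKM of the 3 D cyclins in every library.

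**Figure D2:**
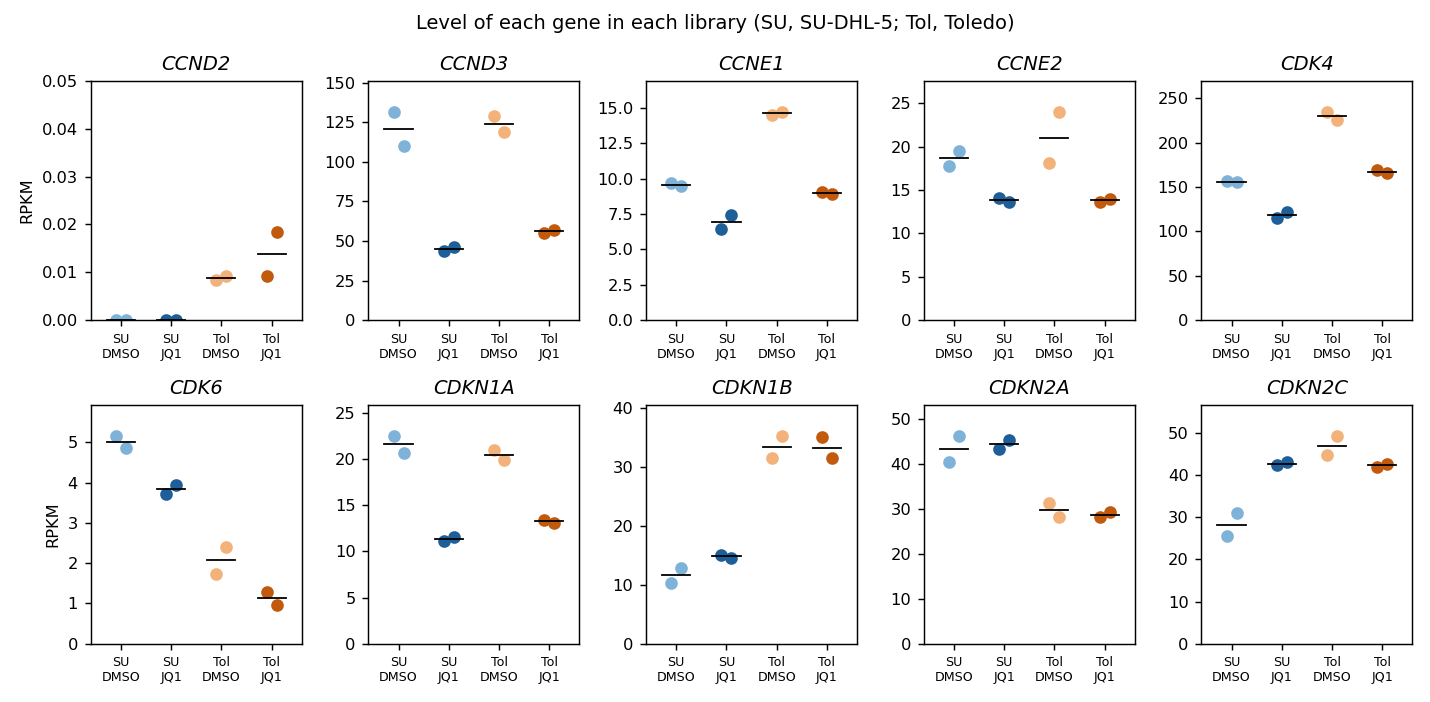
RPKM of each of the 10 genes (vertical axes from 0, a scale per gene) in each library of the 4 samples; points are libraries and lines are their means. CCND3 and CDKN1A stand lower with JQ1 in both lines, CDKN1B stands apart by line, and CCND2 stays below 0.02 RPKM.

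The transcript table splits CCND3 (chr6:41934933-42048894, minus strand, on GRCh38) between a proximal start and a distal start 107046 bases further upstream, with 3 transcripts each. Promoter sequences of both are shown because the starts had different JQ1 ratios in SU-DHL-5. They are RefSeq windows on GRCh38.p14 of 250 bases before to 50 after an annotated start, and each holds the 5′ end of the transcripts in the table. Capitals would mark an E-box (CACGTG, the site of MYC and MAX) or an E2F core (TTCCCGC or TTGGCGC on either strand), and neither window holds one.
CCND3 proximal start, chr6:41941759-41942058, minus strand: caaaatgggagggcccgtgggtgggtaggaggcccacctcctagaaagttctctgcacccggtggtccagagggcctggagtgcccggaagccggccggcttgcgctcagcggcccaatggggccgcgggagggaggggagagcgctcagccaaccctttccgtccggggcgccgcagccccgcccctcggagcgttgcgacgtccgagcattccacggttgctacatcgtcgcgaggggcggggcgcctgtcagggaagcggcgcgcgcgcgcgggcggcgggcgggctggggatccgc
CCND3 distal start, chr6:42048639-42048938, minus strand: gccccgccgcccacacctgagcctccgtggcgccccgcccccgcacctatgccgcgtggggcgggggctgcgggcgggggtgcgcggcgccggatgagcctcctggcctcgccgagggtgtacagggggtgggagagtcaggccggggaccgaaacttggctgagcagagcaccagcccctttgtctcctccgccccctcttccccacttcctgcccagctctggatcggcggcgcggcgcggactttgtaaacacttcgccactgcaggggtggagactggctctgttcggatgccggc

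The distal start took 685 and 515 reads with DMSO and 73 and 134 reads with JQ1 in SU-DHL-5, the log2 ratio being -2.46 [-2.68, -2.25]. The proximal start took 5840 and 5387 reads with DMSO and 2212 and 1996 reads with JQ1, a log2 ratio of -1.34 [-1.40, -1.29]. The share of the distal start in the reads of the gene was 10.5% and 8.73% with DMSO and 3.19% and 6.29% with JQ1, so these libraries did not overlap, although the JQ1 libraries differed from each other as well. In Toledo the distal start took 457 and 362 reads with DMSO and 152 and 196 reads with JQ1, a log2 ratio of -1.17 [-1.35, -0.99] beside -1.14 [-1.19, -1.10] at the proximal start. There its share was 5.94% to 6.35% with DMSO and 5.37% to 6.72% with JQ1, which overlapped. How the authors divided reads between overlapping transcripts is not given in the sources used here.

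The E-type cyclins, the partners of CDK2 at the G1/S boundary, were called lower in Toledo, with smaller ratios in SU-DHL-5. CCNE1 (chr19:29811898-29824317) was at 14.5 and 14.7 RPKM with DMSO and 9.05 and 8.94 RPKM with JQ1 in Toledo, a log2 ratio of -0.69 [-0.85, -0.55]. In SU-DHL-5 it was at 9.68 and 9.47 RPKM with DMSO and 6.44 and 7.43 RPKM with JQ1, a log2 ratio of -0.46 [-0.65, -0.29] that was not called. The libraries of CCNE1 were apart in both lines, and the intervals of its ratios overlapped.

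CCNE2 (chr8:94880224-94895254) was at 18.1 and 24.0 RPKM with DMSO and 13.6 and 14.0 RPKM with JQ1 in Toledo, a log2 ratio of -0.60 [-0.70, -0.50]. In SU-DHL-5 it was at 17.8 and 19.5 RPKM with DMSO and 14.1 and 13.6 RPKM with JQ1, a log2 ratio of -0.43 [-0.54, -0.32] that was not called. JQ1 libraries were lower throughout, but the Toledo DMSO libraries were themselves 0.41 apart on the log2 scale. Without Toledo DMSO library 2 the CCNE2 ratio was -0.39, and without Toledo JQ1 library 1 it was -0.58, neither of which was called. Centring on feature length, that is on the median ratio of genes of like length, ended the Toledo calls of CCNE1 (-0.55) and CCNE2 (-0.50), and scaling to the median ratio of all genes (-0.55) and a pseudocount of 1 RPKM (-0.57) that of CCNE2. INTS8, on the other strand, shares 270 bases with CCNE2 and stood at 23.3 RPKM with DMSO and 40.3 RPKM with JQ1 in SU-DHL-5. Whether reads were counted by strand is not given in the sources used here.

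Of the G1 kinases, CDK4 was by far the more abundant, and its JQ1 libraries were below its DMSO libraries in both lines without reaching the cutoff. CDK4 (chr12:57747727-57752447) was at 156 and 156 RPKM with DMSO and 115 and 121 RPKM with JQ1 in SU-DHL-5, the log2 ratio being -0.40 [-0.45, -0.36]. Toledo libraries had 234 and 226 RPKM with DMSO and 169 and 166 RPKM with JQ1, a log2 ratio of -0.46 [-0.50, -0.43]. The conditions were well apart, since the libraries of a sample differed by at most 0.08 on the log2 scale. TSPAN31 overlaps the end of CDK4 on the other strand by 517 bases and stood at 3.76 to 21.5 RPKM in the condition means, higher with JQ1 in both lines.

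CDK4 is a textbook target of MYC, and its promoter is shown because it held 3 E-boxes, in capitals, the most of the 8 members searched. They begin 216, 196 and 101 bases before the RefSeq start, and 7.26% of all 35116 RefSeq promoter windows of this length hold at least 1. The share of windows that hold 3 was not counted. The RNA of MYC itself was at 44.1 and 40.9 RPKM with DMSO and 35.2 and 34.4 RPKM with JQ1 in SU-DHL-5 (log2 ratio -0.29), and at 40.4 and 44.4 RPKM with DMSO and 44.6 and 42.1 RPKM with JQ1 in Toledo (0.03). Neither was called.
CDK4, chr12:57752261-57752560, minus strand: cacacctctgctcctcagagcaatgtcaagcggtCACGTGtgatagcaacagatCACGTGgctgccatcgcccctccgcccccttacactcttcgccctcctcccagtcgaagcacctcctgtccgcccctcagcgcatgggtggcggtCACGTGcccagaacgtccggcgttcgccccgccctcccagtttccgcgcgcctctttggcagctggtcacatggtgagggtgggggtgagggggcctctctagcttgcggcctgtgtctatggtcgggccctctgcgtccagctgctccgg

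CDK6 (chr7:92604921-92836627), a kinase prominent in blood-forming cells, was the least abundant member after CCND2. In Toledo it was at 1.73 and 2.40 RPKM with DMSO and 1.29 and 0.97 RPKM with JQ1, a log2 ratio of -0.82. The conditions did not overlap, although all 4 levels were low. From 868 reads with DMSO and 456 with JQ1, the ratio of reads was -0.86 [-1.03, -0.70]. In SU-DHL-5 it was at 5.16 and 4.86 RPKM with DMSO and 3.72 and 3.94 RPKM with JQ1, a log2 ratio of -0.38 [-0.49, -0.29] that was not called, with the conditions apart. The libraries of the Toledo samples differed by 0.45 with DMSO and by -0.38 with JQ1 on the log2 scale, and the Toledo call was lost without Toledo DMSO library 2 (-0.58), with library 1 alone (-0.40) or with a pseudocount of 1 RPKM (-0.53). Centring on length brought a call in SU-DHL-5 (-0.59). The reads of CDK6 moved between its long transcripts from library to library (542 and 261 reads of the first listed transcript in the DMSO libraries of SU-DHL-5), so its transcripts are not compared.

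Of the CIP/KIP inhibitors, p21 was called lower in both lines and p27 in neither. CDKN1A (p21, chr6:36676460-36687339), an inhibitor of CDK2, was at 22.5 and 20.7 RPKM with DMSO and 11.1 and 11.5 RPKM with JQ1 in SU-DHL-5, the log2 ratio being -0.93 [-1.05, -0.81]. In Toledo it was at 21.02 and 19.9 RPKM with DMSO and 13.4 and 13.1 RPKM with JQ1, a log2 ratio of -0.62 [-0.74, -0.51]. No JQ1 library came near a DMSO library in either line, and the intervals of the lines did not overlap, although the difference between lines was not tested. In Toledo the ratio was close to the cutoff and was no longer called with median scaling (-0.57), after centring on length (-0.49) or without Toledo DMSO library 1 (-0.58). In JQ1-treated SU-DHL-5 and in Toledo, 91.4% to 95.9% of its reads in each library were given to 1 of its 4 transcripts. In the DMSO libraries of SU-DHL-5 that transcript was given 724 and 771 of the gene's 848 and 843 reads.

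CDKN1B (p27, chr12:12717368-12722371) was at 10.3 and 12.9 RPKM with DMSO and 15.1 and 14.6 RPKM with JQ1 in SU-DHL-5, the log2 ratio being 0.35 [0.23, 0.48] that was not called. In Toledo it was at 31.6 and 35.3 RPKM with DMSO and 35.1 and 31.5 RPKM with JQ1, a log2 ratio of -0.01 [-0.08, 0.07], and the conditions overlapped. The ratio of CDKN1B to CDKN1A levels was 0.46 and 0.62 with DMSO and 1.36 and 1.27 with JQ1 in SU-DHL-5. In Toledo that ratio was 1.504 and 1.77 with DMSO and 2.62 and 2.40 with JQ1. The JQ1 libraries were above the DMSO libraries in both lines.

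The INK4 inhibitors differed from one another. CDKN2A (chr9:21967752-21994491), which encodes p16INK4A and ARF from separate first exons, was at 40.3 and 46.2 RPKM with DMSO and 43.3 and 45.3 RPKM with JQ1 in SU-DHL-5, the log2 ratio being 0.03 [-0.04, 0.10]. Its Toledo levels were 31.2 and 28.2 RPKM with DMSO and 28.1 and 29.3 RPKM with JQ1, a log2 ratio of -0.05 [-0.14, 0.04]. The conditions overlapped in both lines. The transcript that begins at the ARF first exon was given nearly all reads of the gene in every library. Its share was lowest in SU-DHL-5 DMSO library 1 (1312 of 1361 reads) and highest in SU-DHL-5 JQ1 library 2 (1411 of 1424). The transcripts that begin at the INK4A first exon were given 40 and 30 reads with DMSO and 34 and 13 with JQ1 in SU-DHL-5. In Toledo they were given 23 reads in DMSO library 1 and 14 and 13 reads with JQ1. For Toledo DMSO library 2 the recovered 18 reads are a lower limit, since the transcript reads fell short of the gene's 983.

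CDKN2C (p18INK4C, chr1:50968695-50974637), an INK4 inhibitor that acts when B cells leave the cycle to become plasma cells, was the only member called higher with JQ1. In SU-DHL-5 it was at 25.5 and 30.9 RPKM with DMSO and 42.4 and 43.0 RPKM with JQ1, a log2 ratio of 0.60 [0.52, 0.67]. Toledo levels were 44.6 and 49.2 RPKM with DMSO and 41.9 and 42.6 RPKM with JQ1, a log2 ratio of -0.15 [-0.21, -0.08] that was not called. Under JQ1 the lines thus stood at nearly the same level, having started from different ones. The Toledo ratio was -0.10 with median scaling and -0.02 after centring on length, beside a median of -0.07 over all genes. The SU-DHL-5 ratio lay just past the cutoff, and it was not called with median scaling (0.57), a pseudocount of 1 RPKM (0.58), library 2 alone (0.48) or without SU-DHL-5 DMSO library 1 (0.47).

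CDKN2C too has separate starts in the table, an upstream one and an internal one 1275 bases downstream of it. RefSeq promoter windows of both are shown since the starts had different JQ1 ratios in SU-DHL-5. The upstream window, which holds the 5′ end in the table, has E2F cores (TTCCCGC, as its reverse complement GCGGGAA the first time) beginning 131 and 34 bases before the RefSeq start, where 9.23% of all RefSeq windows hold at least 1. The window of the internal start begins 25 bases downstream of the 5′ end in the table and holds 1 E-box, 69 bases before its RefSeq start. That E-box is thus upstream of the RefSeq start but downstream of the 5′ end in the table. Of the 14 windows of the 8 members looked up, 1 held an E2F core and 4 an E-box.
CDKN2C upstream start, chr1:50968456-50968755, plus strand: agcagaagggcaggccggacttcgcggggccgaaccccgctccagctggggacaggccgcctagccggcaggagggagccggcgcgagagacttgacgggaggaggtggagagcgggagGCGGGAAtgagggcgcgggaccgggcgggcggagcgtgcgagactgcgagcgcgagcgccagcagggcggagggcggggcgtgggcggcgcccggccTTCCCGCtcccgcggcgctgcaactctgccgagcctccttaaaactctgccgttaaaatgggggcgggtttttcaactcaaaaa
CDKN2C internal start, chr1:50969995-50970294, plus strand: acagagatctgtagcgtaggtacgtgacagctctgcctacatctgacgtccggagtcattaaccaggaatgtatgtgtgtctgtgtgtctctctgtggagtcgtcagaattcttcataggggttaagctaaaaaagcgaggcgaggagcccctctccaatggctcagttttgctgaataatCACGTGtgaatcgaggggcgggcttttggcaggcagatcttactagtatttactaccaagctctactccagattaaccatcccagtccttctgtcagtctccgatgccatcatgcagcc

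The internal start took 205 and 281 reads with DMSO and 570 and 502 reads with JQ1 in SU-DHL-5, the log2 ratio being 1.21 [1.06, 1.37]. The upstream start took 786 and 1018 reads with DMSO and 1163 and 1055 reads with JQ1, a log2 ratio of 0.37 [0.28, 0.46]. The share of the internal start was 20.7% and 21.6% with DMSO and 32.9% and 32.2% with JQ1, a gap far wider than that between libraries. In Toledo the internal start took 263 and 245 reads with DMSO and 186 and 207 reads with JQ1, with shares of 13.5% and 12.4% and then 11.01% and 12.2%. Its log2 ratio there was -0.30 [-0.50, -0.11], beside -0.13 [-0.20, -0.05] at the upstream start. The plot of start shares sets these beside CCND3 and CDKN2A.

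**Figure D3:**
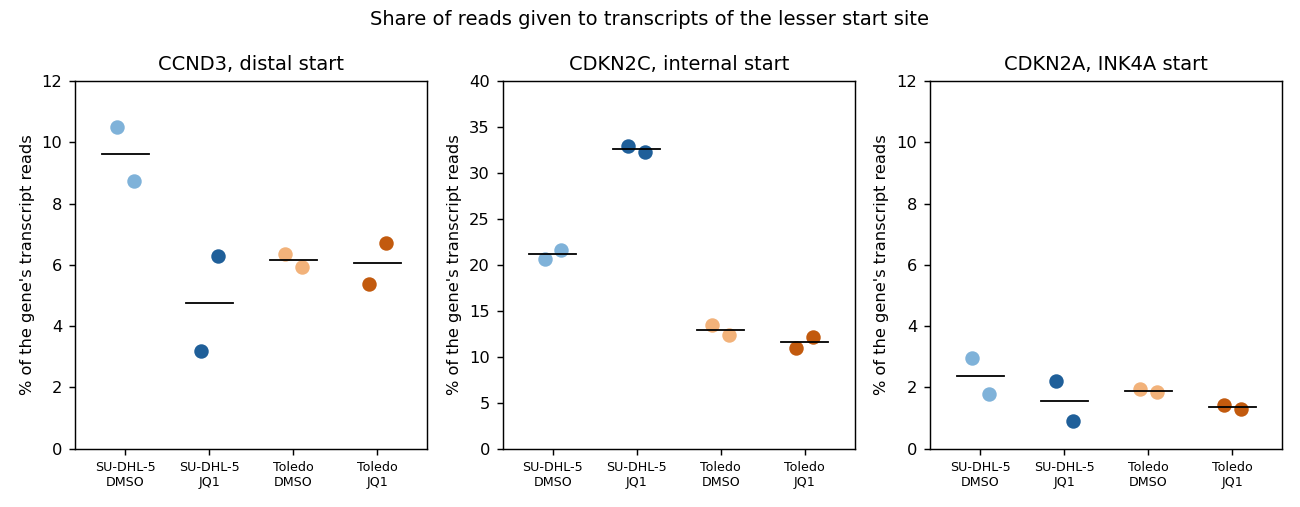
Share (%) of the gene's transcript reads given to the distal start of CCND3, the internal start of CDKN2C and the INK4A start of CDKN2A in each library (points) with the mean of each sample (lines). With JQ1 in SU-DHL-5 the CCND3 share is at 3.19% and 6.29% and the CDKN2C share at 32.9% and 32.2%, both apart from DMSO, while the Toledo samples differ little.

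Under DMSO, the lines differed most in p27 and CDK6. Of the 9 members that passed the filter, CCNE1, CDKN1B and CDKN2C were called higher in Toledo than in SU-DHL-5, beside 27.1% of all 10388 genes tested, and CDK6 was called lower, beside 23.9%. Without a fold cutoff, the Toledo libraries lay above for 4 members and below for 2, beside 43.0% and 41.7% of all genes. The 3 members whose libraries overlapped were CCND3, CCNE2 and CDKN1A, the last with a log2 ratio of -0.08 [-0.17, 0.02]. The log2 ratio of Toledo to SU-DHL-5 was 1.52 [1.41, 1.63] for CDKN1B, 0.73 [0.65, 0.80] for CDKN2C and 0.60 [0.47, 0.75] for CCNE1. It was -1.24 for CDK6 (-1.29 [-1.40, -1.17] from reads). CDK4 (0.56 [0.53, 0.60]) and CDKN2A (-0.54 [-0.62, -0.46]) came close to the cutoff without passing it. CDKN2A passed it without DMSO library 1 of either line and CDK4 with median scaling or without Toledo DMSO library 2, and CCNE1 no longer passed with a pseudocount of 1 RPKM (0.56) or library 1 alone (0.58). The median over the 9 members was 0.17 beside 0.01 over all genes. MTAP, next to CDKN2A on chromosome 9, was at 9.21 and 9.97 RPKM in SU-DHL-5 and 4.88 and 6.39 RPKM in Toledo, and was called lower in Toledo (-0.76).

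The order of levels was alike in the 4 samples at its ends and differed in the middle. CDK4 came first and CCND3 second in every sample, and CCNE1, CDK6 and CCND2 came last, in that order. In SU-DHL-5 under DMSO the order between them was CDKN2A, CDKN2C, CDKN1A, CCNE2 and CDKN1B, whereas in Toledo it was CDKN2C, CDKN1B, CDKN2A, CCNE2 and CDKN1A. With JQ1 the order in SU-DHL-5 became CDKN2A, CDKN2C, CDKN1B, CCNE2 and CDKN1A, and that in Toledo stayed as it was. Neighbours whose libraries overlapped were CCND3 and CDKN2A in JQ1-treated SU-DHL-5 (45.0 and 44.3 RPKM) and CCNE2 and CDKN1A in DMSO-treated Toledo (21.01 and 20.5 RPKM). All other neighbours were apart by their libraries.

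Ratios of levels within a library do not depend on its depth. The ratio of CCND3 to CDK4, cyclin to kinase, was 0.84 and 0.71 with DMSO and 0.38 and 0.38 with JQ1 in SU-DHL-5. Toledo had 0.55 and 0.53 with DMSO and 0.33 and 0.35 with JQ1. The lines were therefore closer to each other with JQ1 than with DMSO. The ratio of CDKN2C to CDK4, inhibitor to kinase, was 0.16 and 0.20 with DMSO and 0.37 and 0.35 with JQ1 in SU-DHL-5, and 0.19 and 0.22 with DMSO and 0.25 and 0.26 with JQ1 in Toledo. The JQ1 libraries were higher in both lines, and in Toledo both genes had JQ1 ratios below 0, CDK4 of -0.46 and CDKN2C of -0.15. CDK4 was 30.3 to 32.0 times as abundant as CDK6 in all SU-DHL-5 libraries, with no gap between conditions, and 94.0 to 171 times in Toledo.

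**Figure D4:**
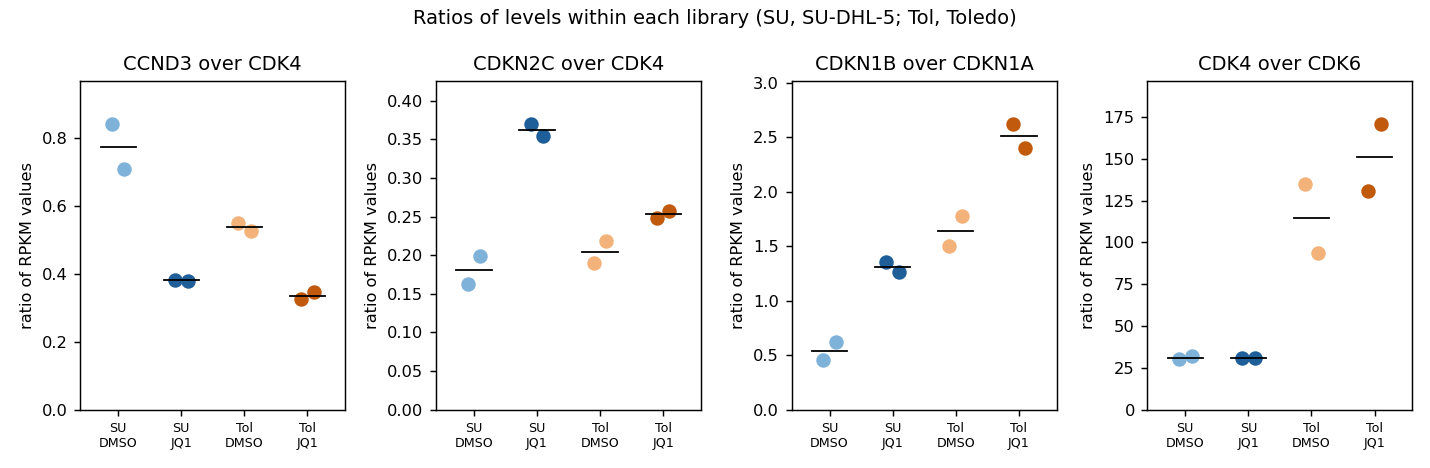
Ratio of the RPKM values of 2 members within each library (points) and the mean of each sample (lines), with vertical axes from 0. CCND3 over CDK4 is lower and CDKN2C over CDK4 and CDKN1B over CDKN1A are higher with JQ1 in both lines, and CDK4 over CDK6 differs by line.

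The genes most like the 3 members of widest range were sought among 9520 genes over the 8 libraries, by the root mean square difference of centred log2 levels. Nearest to CDK6 were RBBP9 (0.10), KRR1 (0.12) and MCM10 (0.12). Nearest to CDKN1B were HARS2 (0.08), TUBE1 (0.08) and TMEM42 (0.09), and nearest to CCND3 were IFRD2 (0.09), CLN3 (0.11) and COA7 (0.12). IFRD2, for example, had condition means of 43.3 and 16.1 RPKM in SU-DHL-5 and 48.6 and 18.6 RPKM in Toledo, DMSO before JQ1.

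Around the members, called E2F factors and S phase genes were lower with JQ1. Of the 13 RB and E2F genes, 2 were called lower in SU-DHL-5, close to the 13.3% of all genes, and 4 in Toledo, beside 17.7%, with a median log2 ratio of -0.18 and -0.45. E2F2, an activator of S phase genes, had a log2 ratio of -1.02 for SU-DHL-5 and -0.90 for Toledo. E2F8, a repressor that E2F factors themselves induce, had the largest ratio of the list in both lines. It was at 8.57 and 9.67 RPKM with DMSO and 4.21 and 4.55 RPKM with JQ1 in SU-DHL-5 (log2 ratio -1.04), and at 9.97 and 13.5 RPKM with DMSO and 6.04 and 4.81 RPKM with JQ1 in Toledo (-1.10). RBL2 and TFDP2 were called in Toledo alone, where the difference from SU-DHL-5 was not tested.

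Of 16 E2F-driven S phase genes, 4 were called lower in SU-DHL-5, beside 13.3% of all genes, and 6 in Toledo, beside 17.7%, with medians of -0.29 and -0.43. Called in both lines were the helicase subunits MCM2, MCM5 and MCM7 and the licensing factor CDT1. MCM5 had the largest ratio in SU-DHL-5, at 179 and 161 RPKM with DMSO and 85.6 and 88.7 RPKM with JQ1 (log2 ratio -0.96). CDT1 had the largest ratio in Toledo, at 101 and 93.3 RPKM with DMSO and 50.8 and 59.7 RPKM with JQ1 (-0.81).

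Of 8 other G1 and S cyclins, CDKs and inhibitors, 4 passed the filter. Only CDKN2D of these was called with JQ1, higher in SU-DHL-5, beside 9.06% of all genes there. The log2 ratios of CCNA2, CDK2 and CDK3, which were not called, were -0.27, -0.24 and 0.01 for SU-DHL-5. For Toledo they were -0.35, -0.38 and -0.39. CDKN2D encodes p19INK4D, a further inhibitor of CDK4 and CDK6. It was at 9.17 and 10.3 RPKM with DMSO and 19.5 and 16.2 RPKM with JQ1 in SU-DHL-5 (log2 ratio 0.87 [0.71, 1.05]). Toledo stood at 20.9 and 19.99 RPKM with DMSO and 30.5 and 29.7 RPKM with JQ1 (0.55 [0.43, 0.67]), which was not called, and the libraries were apart in both lines. Of 13 CDK activators and turnover genes, 1 was called lower and 1 higher in SU-DHL-5, beside 13.3% and 9.06% of all genes, and 2 were called lower in Toledo, beside 17.7%. The phosphatase CDC25A, which activates CDK2, had a log2 ratio of -0.71 for SU-DHL-5 and -0.98 for Toledo. SKP1, a subunit of the ligase that turns over p27 and cyclin E, was at 133 and 139 RPKM with DMSO and 271 and 282 RPKM with JQ1 in SU-DHL-5 (1.02). In Toledo it was at 132 and 127 RPKM with DMSO and 189 and 184 RPKM with JQ1 (0.52), which was not called although the libraries were apart. SKP2, of the same ligase, was called lower in Toledo (-0.62), beside -0.56 in SU-DHL-5, where the libraries were apart as well.

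Among transcription factors known to act on the members, MXD1, an antagonist of MYC, was called higher in SU-DHL-5 (0.77). In Toledo STAT5A was called lower (-1.07), and MXD1 (0.71) and FOXO1 (0.78), an inducer of CDKN1B, were called higher. Of the 4 neighbours of CDKN2A found in the table, only MTAP passed the filter, with a log2 ratio of -0.15 for SU-DHL-5 and -0.06 for Toledo.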

How the data were processed

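Poly(A) RNA libraries of the 4 samples were made with a stranded kit and sequenced. The authors gave a gene and a transcript table of RPKM, with 2 columns for each sample, and the submitters' processing notes name CASAVA 2.0 and GRCh38. The aligner, annotation and counting are not given in the sources used here.

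Columns of a sample were averaged. Mapped reads were recovered from RPKM of single-exon genes and exact refinement, and feature lengths as the smallest of 100 to 40000 bases that made all values whole within 0.02, which held for 14942 of 14944 genes above 0. For a transcript with few reads that length can be too short, which leaves its recovered reads too few. The transcript reads of CDKN1A and CDKN2A fell short of the gene's reads in some DMSO libraries. The refinement, the length recovery and the calls were tested on simulated reads with counting error only, less spread than the libraries showed. That test started close to the true depths and left out the search of single-exon genes. File positions, which count from 0, were raised by 1, after which 15516 of 32649 shared symbols had the RefSeq start. Motifs were searched in RefSeq promoters, in which CCND2 was not matched. CCNE2 was not searched.

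All 10 members were named. Of other lists, genes called in both lines and the largest ratio in each line were named, and the rest were named after their values were seen. For the members of widest range the 3 most similar genes were named, among genes of at least 1 RPKM and 100 reads. Results of some genes are not reported here. Members and lists were chosen with earlier results of these data known. Alternatives varied pseudocount, scaling, length, filter, cutoff, table and libraries. Scripts ran in Python 3.11.15 with pandas 2.3.3, numpy 2.4.6, matplotlib 3.10.9 and scipy 1.17.1.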

Additional observations from a re-analysis of the deposited data

Results flagged for a closer look

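The JQ1 response of CDKN2C had opposite directions in the lines. Every JQ1 library of SU-DHL-5 lay above both of its DMSO libraries, with a log2 ratio of 0.598, and every JQ1 library of Toledo lay below both of its DMSO libraries, with a log2 ratio of -0.15. The difference between the lines was not tested, since each condition had 1 sample, and the Toledo ratio did not reach the cutoff. It was -0.10 with median scaling and -0.02 when centred on length.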

How the results depend on the processing

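CCND3 was called lower in both lines under every alternative, and CDKN1A in SU-DHL-5 under all but the 2-fold cutoff. The 3 calls in SU-DHL-5 became 1 with a 2-fold cutoff and 8 when the read interval alone decided, where 8.23% and 75.8% of all genes were called. The 5 calls in Toledo became 3 with a pseudocount of 1 RPKM, with median scaling, with library 1 alone or without Toledo DMSO library 2 (the last chosen after seeing the data), 2 when centred on length and 1 with a 2-fold cutoff (10.2% of all genes), while the interval gave 7 (76.3% of all genes). The 4 calls between lines under DMSO became 2 with a 2-fold cutoff and 8 by the interval (30.6% and 87.0% of all genes). Of 330 single ratios under alternatives, 254 stayed within the spread between libraries, 76 moved and 0 of those called reversed. With n = 1 per condition, depth limits only the rarest members, and what spread the libraries of a sample measure is not known. No paired analysis was possible because no test was made with 1 sample per condition; the table numbers the libraries alike in every sample, and each number alone was tried as library 1 alone and library 2 alone.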

Other observations

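CDKN2B, which encodes p15INK4B and lies beside CDKN2A, was under the filter on low values. It was at 0.18 and 0.19 RPKM with DMSO and 0.72 and 0.79 RPKM with JQ1 in SU-DHL-5, from 11 and 13 reads and then 47 and 46 reads. In Toledo it was at 0.16 and 0.36 RPKM with DMSO and 0.57 and 0.51 RPKM with JQ1, from 11 and 23 reads and then 37 and 33 reads. The JQ1 libraries were above the DMSO libraries in both lines, where the ratio of reads on the log2 scale was 2.03 [1.36, 2.74] for SU-DHL-5 and 1.11 [0.50, 1.74] for Toledo. CDKN2B was singled out after its values were seen. FBXO31, which encodes a ubiquitin ligase subunit, had the largest difference between the lines among the CDK activators and turnover genes, at 3.33 and 2.45 RPKM in the SU-DHL-5 libraries and 11.1 and 11.9 RPKM in those of Toledo under DMSO.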
